A study of Mus musculus with 7 samples.

Results

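The genes described here are 10 genes of glutathione synthesis and cystine uptake in mouse embryonic fibroblasts (MEFs), namely Slc7a11, Gclc, Gclm, Gss, Chac1, Ggct, Gsr, Gpx1, Gpx4 and Gsta4. They were taken by gene symbol from an RNA-seq table of 49382 genes, in which each stood on 1 row, and the set was drawn up by function but with earlier results of these data known. All 10 were among the 12909 genes kept for comparison, whose TPM averaged 2 or more across the 7 libraries. The fibroblasts were wild-type primary cells from E13.5-E14.4 mouse embryos without the head and red tissue such as fetal liver, plated at 100000 per well. The study asked how fibroblasts sense conditions in their surroundings. It held 1 library of untreated control cells and 1 library for each of 6 conditions. Oxidative stress was 10 μM sodium arsenite for 3 h and osmotic stress 100 mM added NaCl for 3 h. ER stress was 1 μM thapsigargin, and glucose depletion, glutamine depletion and hypoxia were glucose-free medium, glutamine-free medium and 0.1% oxygen, each for 10 h. The labels give no time for the control. Without replicates, the differences below could not be set against the spread between cultures, and none has a p-value. TPM is a transcript's share of its library after division by transcript length, scaled to a sum of 1000000, and it retains no read count, so the depth behind each value is unknown.

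Glutathione is the main small thiol of animal cells. The transporter xCT, encoded by Slc7a11, brings in cystine in exchange for glutamate, and the cystine is reduced to cysteine inside the cell. Glutamate-cysteine ligase, built of the catalytic subunit Gclc and the modifier subunit Gclm, joins cysteine to glutamate in the rate-limiting step, and glutathione synthetase (Gss) adds glycine. Chac1 cleaves glutathione in the cytosol, and Ggct acts on the γ-glutamyl amino acids of the same cycle. Gpx1 and Gpx4 are selenium-dependent peroxidases that spend glutathione on hydrogen peroxide and on lipid peroxides, Gsr reduces the oxidised form, and Gsta4 is a transferase that couples glutathione to 4-hydroxynonenal, a product of lipid peroxidation. Several of these genes are known targets of NRF2, which oxidants and electrophiles stabilise, and Slc7a11 and Chac1 are known targets of ATF4, which is made when protein synthesis is restrained by ER stress or by shortage of amino acids.

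Sequences before the start site are shown for 4 of the genes, those whose searched window held a match to either of the motifs below. They are the 250 bases before the RefSeq start on GRCm38.p6, read 5′ to 3′ on the strand of the gene. Gene locations further below come from the GENCODE annotation, whose starts for Slc7a11, Chac1 and Ggct lie inside these windows. Distances to the start refer to the RefSeq start. Slc7a11 lies on the minus strand (chr3:50443614-50443863), Chac1 on the plus strand (chr2:119350992-119351241), Gclm on the plus strand (chr3:122245307-122245556) and Ggct on the minus strand (chr6:54992868-54993117). Capitals mark matches to TGATGCAA, the core of the element bound by ATF4 with a C/EBP partner, or to TGACNNNGC, the antioxidant response element bound by NRF2, on either strand.
Slc7a11: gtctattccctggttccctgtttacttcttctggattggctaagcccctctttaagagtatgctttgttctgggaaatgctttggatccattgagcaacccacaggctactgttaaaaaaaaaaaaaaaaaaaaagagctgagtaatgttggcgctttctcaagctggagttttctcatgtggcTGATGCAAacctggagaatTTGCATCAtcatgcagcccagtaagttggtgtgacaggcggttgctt
Chac1: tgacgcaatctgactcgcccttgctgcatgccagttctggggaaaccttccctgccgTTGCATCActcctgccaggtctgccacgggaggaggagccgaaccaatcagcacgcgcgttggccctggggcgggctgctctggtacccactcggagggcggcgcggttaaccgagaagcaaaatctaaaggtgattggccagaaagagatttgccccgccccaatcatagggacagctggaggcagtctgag
Gclm: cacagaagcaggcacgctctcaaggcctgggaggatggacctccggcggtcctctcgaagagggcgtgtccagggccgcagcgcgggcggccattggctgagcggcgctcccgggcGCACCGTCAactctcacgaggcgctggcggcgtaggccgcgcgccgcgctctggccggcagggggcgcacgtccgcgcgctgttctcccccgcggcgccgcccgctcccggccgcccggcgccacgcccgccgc
Ggct: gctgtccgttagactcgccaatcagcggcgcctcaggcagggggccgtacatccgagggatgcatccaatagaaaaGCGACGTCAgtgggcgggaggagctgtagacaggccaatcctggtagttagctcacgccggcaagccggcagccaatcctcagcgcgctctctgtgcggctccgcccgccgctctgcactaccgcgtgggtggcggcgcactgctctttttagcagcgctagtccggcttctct

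The windows searched reached from 250 bases before to 50 bases after the start, and RefSeq windows were found for 7 of the 10 genes (none for Gclc, Gsr and Gsta4). Slc7a11 held TGATGCAA 2 times in opposite orientations, with first bases 66 and 47 bases before the start. Chac1 held it once on the opposite strand, 193 bases before the start. TGATGCAA occurred in 0.895% of 32851 promoter windows, and 2 or more matches in those of 2 genes, Slc7a11 and Chchd10. TGACNNNGC occurred in 12.4% of the windows. It was found once in Gclm, 134 bases before the start, and 2 times in Ggct, 174 bases before the start and 6 bases into the transcript. The windows of Gss, Gpx1 and Gpx4 held neither. These matches describe letters in short windows and no binding was measured.

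Each of the 10 fibroblast marker genes examined was above 2 TPM in every library, with a sum of 14168 TPM in the control and between 13858 and 16304 TPM in the other libraries except ER stress, where it was 8766 TPM and Lum (-2.33), Col3a1 (-2.07) and Pdgfrb (-1.15) were past 2-fold downward on the scale below. The sum of 6 macrophage markers lay between 7.92 and 14.9 TPM. Cd68, at 5.26 to 9.77 TPM, made up most of that sum in every library. Adgre1 or Ptprc was at 0 in 6 of the 7 libraries, while Csf1r, Cd14 and Lyz2 were above 0 in each. The sums of 4 endothelial and 4 epithelial markers stayed below 12 TPM. The sum of 6 erythroid markers reached 1.01 TPM and that of 4 hepatocyte markers 0.552 TPM at most. In such bulk samples, fewer cells of a type and less RNA per cell cannot be told apart. Changes below are differences in log2(TPM + 1) from the control library unless stated otherwise, and 2-fold on that scale is the threshold for counting a gene. This scale understates the change of low genes, Slc7a11 above all. Over all 12909 genes the median change was -0.16 for oxidative stress, -0.12 for osmotic stress and between -0.09 and 0.00 elsewhere.

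Of the 60 changes (10 genes in 6 conditions), 8 were past 2-fold upward and 3 downward. Of all 12909 genes, between 1.83% and 8.60% by condition were past 2-fold upward, and between 2.41% and 11.0% downward. Chac1, Slc7a11, Gclc, Gclm, Gsta4 and Ggct passed 2-fold in at least 1 condition, and Gss, Gsr, Gpx1 and Gpx4 in none. The 6 comprise the cystine transporter, both subunits of the rate-limiting ligase, both enzymes of breakdown and the transferase.

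**Figure D1:**
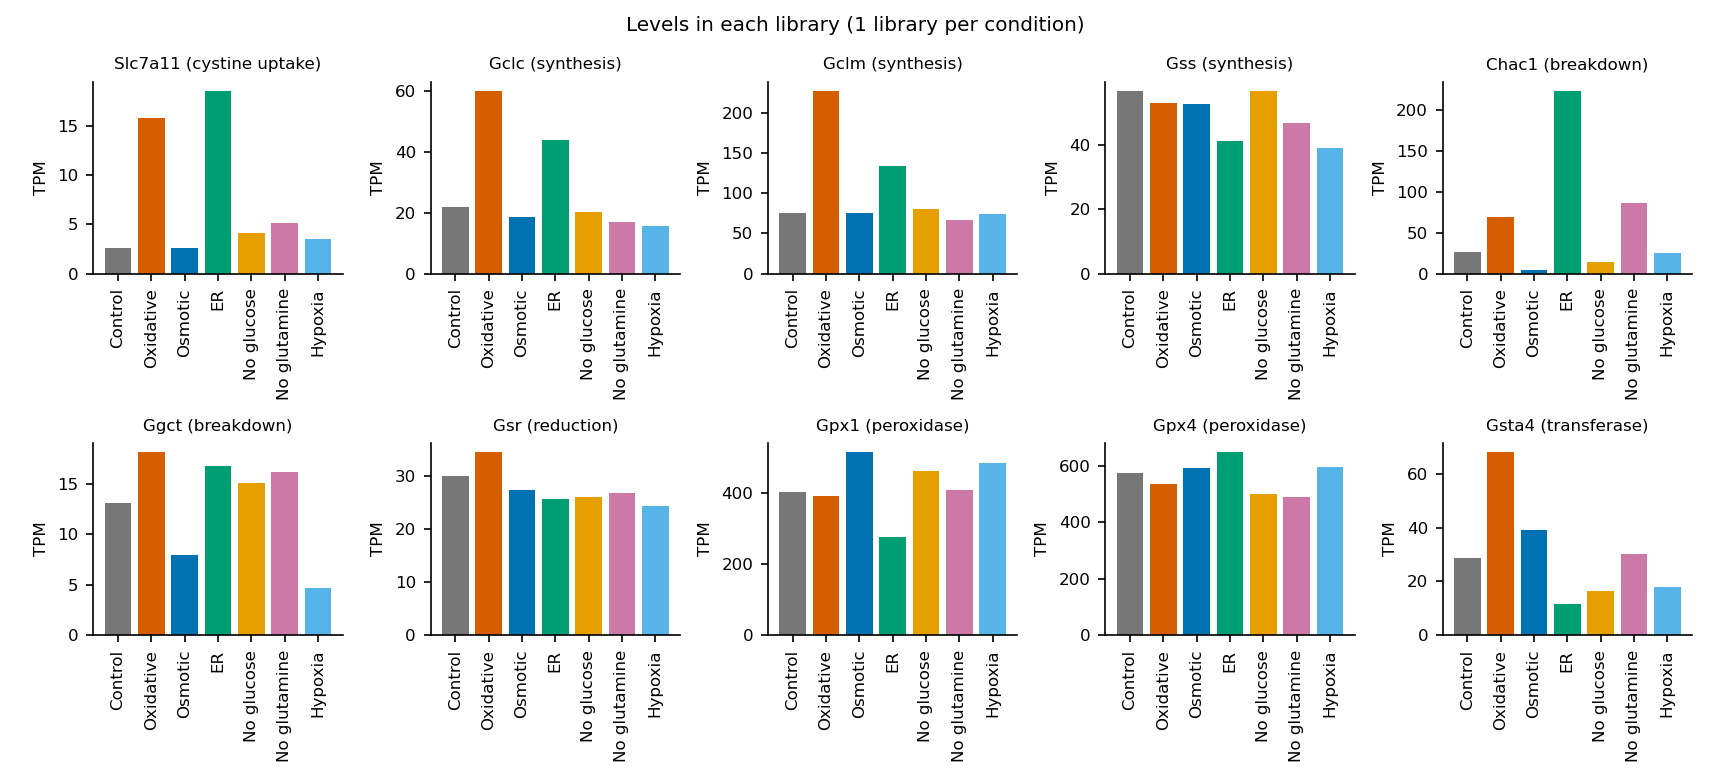
TPM of each gene (vertical axis, from 0, scaled for each panel) in the 7 libraries (horizontal axis), with 1 bar for 1 library and no error bars since there were no replicates. Slc7a11, Gclc and Gclm were highest in oxidative and ER stress, Chac1 ranged from 4.28 to 224 TPM, and Gpx4 from 487 to 648 TPM.

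Slc7a11 (ENSMUSG00000027737, chromosome 3, 49892526 to 50443614 on GRCm38) was the least abundant of the 10 genes in every library but that of ER stress, where Gsta4 and Ggct were lower. Slc7a11 was at 2.60 TPM in the control, 2.54 in osmotic stress, 3.49 in hypoxia, 4.11 in glucose depletion, 5.11 in glutamine depletion, 15.7 in oxidative stress and 18.5 in ER stress. The libraries of oxidative and ER stress stood apart from the other 5, and the order of those 5 rests on small differences in TPM. On the TPM scale the level was 6.06 times the control in oxidative stress and 7.14 times in ER stress, with log2(TPM + 1) changes of 2.22 and 2.44. Among the 12909 genes, 221 had a larger upward change in oxidative stress and 234 in ER stress. The change was 0.77 in glutamine depletion and 0.51 in glucose depletion, both short of 2-fold.

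The subunits of glutamate-cysteine ligase were also highest in the libraries of oxidative and ER stress, in the opposite order to Slc7a11. Gclc (ENSMUSG00000032350, chromosome 9, 77754535 to 77794485) was at 21.8 TPM in the control, 60.0 in oxidative stress, 43.9 in ER stress, 20.3 in glucose depletion, 18.7 in osmotic stress, 16.9 in glutamine depletion and 15.7 in hypoxia. Gclm (ENSMUSG00000028124, chromosome 3, 122245557 to 122270732) was at 75.7 TPM in the control, 228 in oxidative stress, 135 in ER stress, 80.3 in glucose depletion, 75.6 in osmotic stress, 74.7 in hypoxia and 67.2 in glutamine depletion. Both subunits were highest under arsenite and next highest under thapsigargin. Their changes were 1.42 for Gclc and 1.58 for Gclm in oxidative stress, and 0.98 and 0.82 in ER stress. The value of Gclc in ER stress lay just inside 2-fold with a pseudocount of 1 TPM and just outside it (1.01) with 0.1 TPM. In the other 4 conditions Gclm stayed between -0.17 and 0.08, and Gclc between -0.45 and -0.10. TPM of the modifier subunit exceeded that of the catalytic subunit in every library, by 3.06 times in ER stress, 3.48 in the control, 3.80 in oxidative stress and at most 4.77 in hypoxia.

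Gss, which completes glutathione, did not share this pattern. Gss (ENSMUSG00000027610, chromosome 2, 155563181 to 155592810) was at 56.8 TPM in the control, 57.0 in glucose depletion, 53.2 in oxidative stress, 52.8 in osmotic stress, 46.9 for glutamine depletion, 41.4 for ER stress and 39.2 for hypoxia. Its lowest change was -0.53, in hypoxia, and its highest 0.01, in glucose depletion. The TPM of Gclc was 0.384 times that of Gss in the control and between 0.353 and 0.400 times in 4 conditions, but 1.13 times in oxidative stress and 1.06 times in ER stress. Exons of Gss overlap those of Acss2, Gssos1 and Gssos2 on the opposite strand, and exons of Gclm overlap Gm17494 on the opposite strand and Gm6061 on its own, so that their reads may be shared. None of these neighbours exceeded 11.1 TPM in any library.

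Chac1, the cytosolic enzyme that cleaves glutathione, varied most. Chac1 (ENSMUSG00000027313, chromosome 2, 119351229 to 119354381) was at 26.2 TPM in the control, 224 in ER stress, 86.8 in glutamine depletion, 69.7 in oxidative stress, 25.3 in hypoxia, 14.8 in glucose depletion and 4.28 in osmotic stress. The highest library held 52.3 times the TPM of the lowest, against at most 7.29 times for any other of the 10 genes. The changes were 3.05 in ER stress, 1.69 in glutamine depletion, 1.38 in oxidative stress and -2.36 in osmotic stress. In ER stress 172 of the 12909 genes had a larger upward change, and in glutamine depletion 198. In hypoxia (-0.05) and glucose depletion (-0.78) Chac1 was within 2-fold of the control.

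Ggct, the other gene of γ-glutamyl turnover, was the single gene of the 10 past 2-fold in hypoxia. Ggct (ENSMUSG00000002797, chromosome 6, 54982580 to 54992950) was at 13.1 TPM in the control, 18.1 for oxidative stress, 16.8 for ER stress, 16.2 for glutamine depletion, 15.1 in glucose depletion, 7.93 in osmotic stress and 4.69 in hypoxia. Hypoxia and osmotic stress were below the control and the other 4 conditions above it. The change in hypoxia was -1.31, or -0.90 with a pseudocount of 5 TPM, which is inside 2-fold. The ratio of Chac1 to Ggct in TPM was 1.99 in the control, 13.4 in ER stress and 0.540 in osmotic stress.

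The enzymes that use and regenerate glutathione stayed within 2-fold of the control, apart from Gsta4. Gpx4 (ENSMUSG00000075706, chromosome 10, 80047166 to 80056439) protects membranes from lipid peroxides and was the most abundant of the 10 genes in every library. It was at 574 TPM in the control, 648 in ER stress, 594 in hypoxia, 592 in osmotic stress, 535 in oxidative stress, 501 in glucose depletion and 487 in glutamine depletion. Its changes lay between -0.24 and 0.17, the narrowest range of the 10 genes. Gpx1 (ENSMUSG00000063856, chromosome 9, 108338903 to 108340343), the cytosolic peroxidase, was at 402 TPM in the control, 515 in osmotic stress, 485 in hypoxia, 462 in glucose depletion, 409 in glutamine depletion, 392 in oxidative stress and 276 in ER stress. Its lowest change was -0.54, in ER stress, and Gpx4 exceeded Gpx1 by 2.35 times there against 1.43 times in the control. Together these peroxidases made up between 62.9% and 84.0% of the summed TPM of the 10 genes. Gsr (ENSMUSG00000031584, chromosome 8, 33652523 to 33698163), glutathione reductase, was at 30.0 TPM in the control, 34.5 in oxidative stress, 27.3 in osmotic stress, 26.7 in glutamine depletion, 26.1 in glucose depletion, 25.7 in ER stress and 24.4 in hypoxia. Oxidative stress alone was above the control, with a change of 0.19.

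Gsta4 was past 2-fold in opposite directions in oxidative and ER stress, as no other of the 10 genes was. Gsta4 (ENSMUSG00000032348, chromosome 9, 78182774 to 78209349) was at 28.7 TPM in the control, 68.0 in oxidative stress, 39.0 in osmotic stress, 30.2 in glutamine depletion, 17.8 in hypoxia, 16.5 in glucose depletion and 11.7 in ER stress. Its changes were 1.22 in oxidative stress and -1.22 in ER stress. In glucose depletion and hypoxia it was at -0.76 and -0.66, and in glutamine depletion at 0.07.

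**Figure D2:**
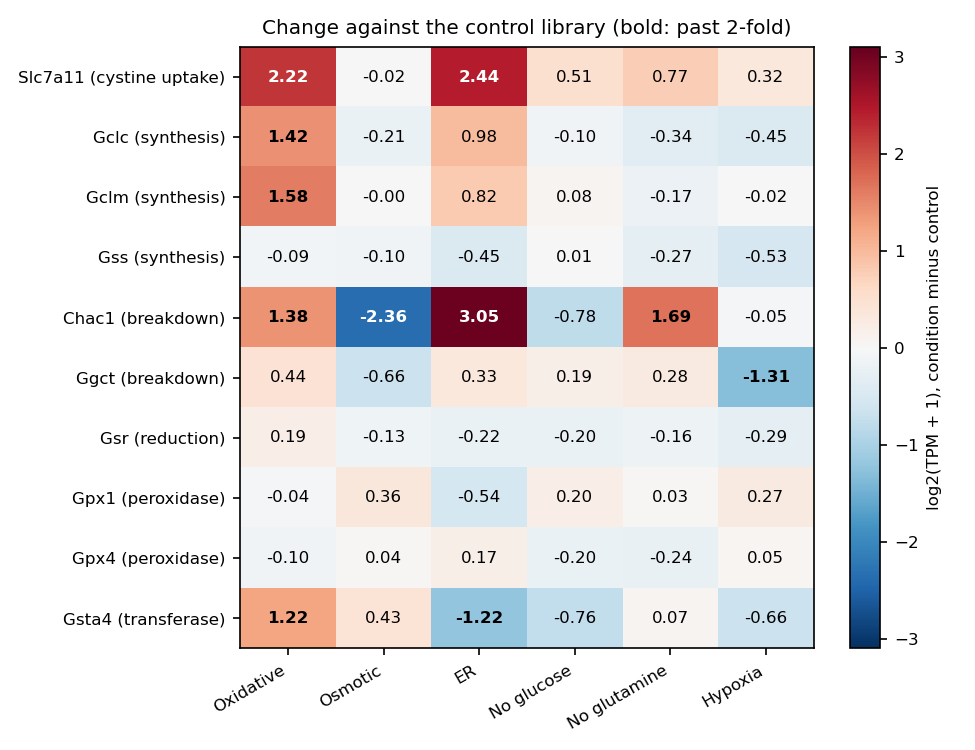
Change in log2(TPM + 1) against the control library for each gene (rows, ordered by role) and condition (columns), with colour and number giving the same value and bold numbers past 2-fold. Oxidative stress has 5 values past 2-fold upward and glucose depletion has none.

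Oxidative stress had the most of the 10 genes past 2-fold. Slc7a11 (2.22), Gclm (1.58), Gclc (1.42), Chac1 (1.38) and Gsta4 (1.22) were past 2-fold upward and none downward, that is 5 of 10 genes, where 3.94% of all 12909 genes were past 2-fold upward and 4.85% downward. Relative to the median of all genes, 4.75% were past 2-fold upward and 3.20% downward, the same 5 genes passed, and Gclm stood at 1.73. Of 12 NRF2 targets outside the glutathione pathway, 4 were past 2-fold upward in this library. Hmox1, which breaks down heme, went from 266 to 6055 TPM (4.50), Srxn1, which repairs peroxiredoxins, from 54.0 to 291 TPM (2.41), Osgin1 from 4.12 to 18.6 TPM (1.94) and Txnrd1, thioredoxin reductase, from 205 to 634 TPM (1.63). The quinone reductase Nqo1 was at 0.42, Keap1, which restrains NRF2, at -0.97 and Nfe2l2, which encodes NRF2, at 0.42. Such values were not particular to this library, with Keap1 at -0.88 in glutamine depletion and Nfe2l2 at 0.52 in ER stress. Of 12 ATF4 targets outside the glutathione pathway, Atf3 alone was past 2-fold, from 3.02 to 88.3 TPM (4.47).

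In ER stress the cystine transporter and Chac1 were higher, and most of the other genes were within 2-fold. Slc7a11 (2.44) and Chac1 (3.05) were past 2-fold upward and Gsta4 (-1.22) downward. These are 2 and 1 of the 10 genes, where 8.60% of all genes were past 2-fold upward and 11.0% downward. Of the 12 ATF4 targets, 7 were past 2-fold upward and none downward, with Atf3 going from 3.02 to 112 TPM (4.81), Ddit3 from 136 to 1870 TPM (3.77), Ppp1r15a from 38.8 to 514 TPM (3.70) and Trib3 from 30.8 to 184 TPM (2.54). Atf4 itself went from 276 to 773 TPM (1.48). Of the 12 NRF2 targets, Hmox1 (2.75) and Txnrd1 (1.59) were past 2-fold. The summed fibroblast markers were lowest in this library, and their part in these values was not tested.

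Chac1 was also the gene past 2-fold in the glutamine depletion and osmotic stress libraries, in opposite directions. In glutamine depletion it was 1 of 10 genes past 2-fold upward, with none downward, where 3.21% of all genes were past 2-fold in each direction (3.69% upward and 2.47% downward relative to the median). Of the ATF4 targets, Atf3 (2.47) and Nupr1 (1.37) passed 2-fold there, and of the NRF2 targets Txnrd1 (1.19) and Srxn1 (1.13), while Gclc (-0.34) and Gclm (-0.17) were slightly below the control. In osmotic stress none of the 10 genes was past 2-fold upward and Chac1 alone downward (-2.36), where 3.08% and 8.76% of all genes were. The ATF4 targets divided in that library, with 4 past 2-fold upward (Ppp1r15a at 1.96, Atf3 at 1.82, Nupr1 at 1.42 and Ddit4 at 1.17) and 3 downward (Trib3, from 30.8 to 6.96 TPM, Ddit3 at -1.46 and Sesn2 at -1.24). Atf4 was at 0.73. No NRF2 target passed 2-fold in osmotic stress.

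In hypoxia Ggct (-1.31) was past 2-fold downward and none upward, where 2.64% and 3.57% of all genes were. Of the 12 ATF4 targets, Vldlr (2.39), Ddit4 (1.77) and Trib3 (1.18) were past 2-fold upward and none downward. The rest lay between -0.23 (Phgdh) and 0.79 (Atf3), and Atf4 itself was at 0.16. No NRF2 target was past 2-fold. In glucose depletion none of the 10 genes passed 2-fold in either direction, where 1.83% of all genes did upward and 2.41% downward, and no NRF2 or ATF4 target did.

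**Figure D3:**
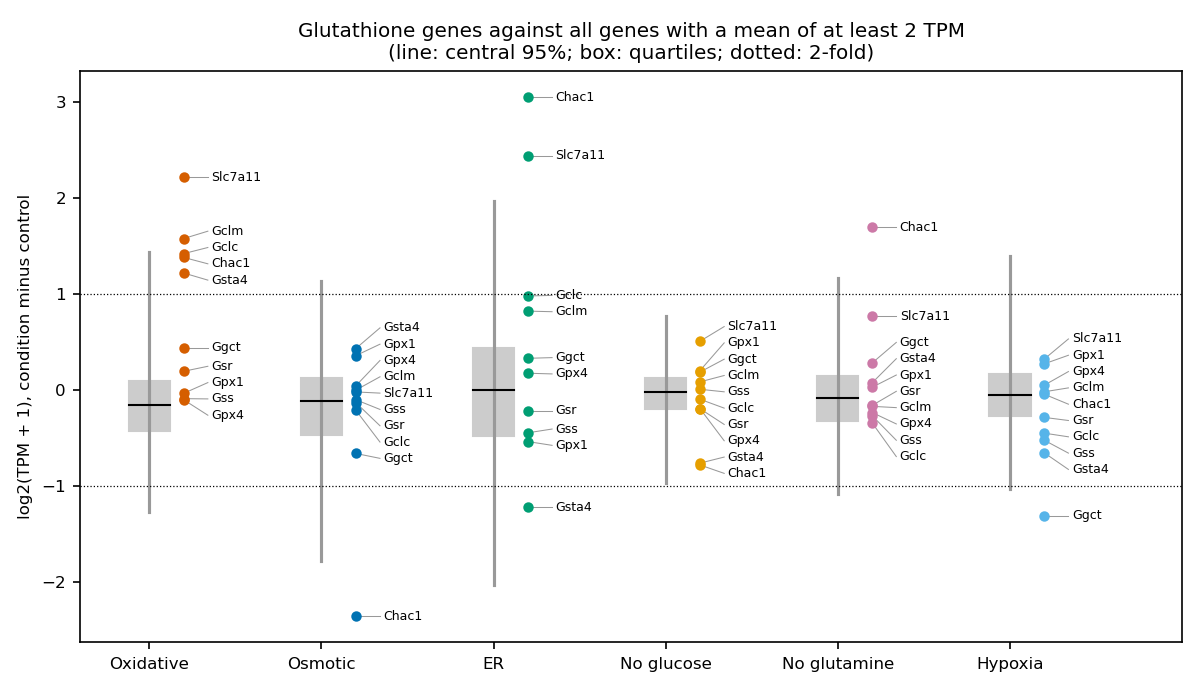
Change in log2(TPM + 1) against the control (vertical axis) in each condition (horizontal axis), with coloured points for the 10 genes, a grey line for the central 95% of the 12909 genes, a box for their quartiles and a black bar for their median. Slc7a11 in oxidative and ER stress, Gclm in oxidative stress, Chac1 in ER stress, glutamine depletion and osmotic stress, and Ggct in hypoxia lie beyond the grey lines.

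All changes above share the 1 control library, so libraries of equal treatment time were also compared directly. At 3 h, oxidative stress against osmotic stress had 5 of 10 genes past 2-fold upward and none downward, where 7.86% and 3.90% of all genes were. These were Chac1 (3.74), Slc7a11 (2.24), Gclc (1.63), Gclm (1.58) and Ggct (1.10), and Gsta4, past 2-fold against the control, was at 0.79. At 10 h, ER stress against glucose depletion had Chac1 (3.83), Slc7a11 (1.93) and Gclc (1.08) past 2-fold upward. None of the 10 was past it downward, where 9.02% of all genes were upward and 9.71% downward. Gsta4, past 2-fold downward in ER stress against the control, was at -0.46 here. It was also below the control in glucose depletion (-0.76). Glutamine depletion against glucose depletion had Chac1 (2.48) past 2-fold upward and none downward, where 3.12% and 2.37% of all genes were. Hypoxia against glucose depletion had none past 2-fold upward and Ggct (-1.50) downward, where 4.19% and 2.77% of all genes were. Chac1 in oxidative stress was compared here with the library in which it was lowest, so that value adds nothing on its level under arsenite against untreated cells. Ggct in oxidative stress was within 2-fold of the control (0.44). It passed here against osmotic stress, where it was below the control (-0.66). Chac1 was also below the control in glucose depletion (-0.78), which adds to its values of 3.83 and 2.48.

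Other genes of glutathione metabolism were read from lists by function. In ER stress, 7 of the 11 genes listed under cystine and cysteine supply passed the expression filter. Of these, 4 were past 2-fold upward and none downward, where 8.60% and 11.0% of all genes were. The median was 1.31 against 0.00 for all genes. Cth, which makes cysteine from cystathionine, went from 11.5 to 118 TPM (3.25) and Slc3a2, the heavy chain that partners xCT, from 201 to 1454 TPM (2.85). The neutral amino acid carriers Slc1a5 and Slc1a4 were at 1.32 and 1.31. The rest were below the control, with Ctns at -0.22, Cdo1 at -0.66 and Mpst at -0.85. None of the 7 genes passed 2-fold in oxidative stress, where Slc3a2 was at 0.56 and Cth at -0.35, although Slc7a11 was high in both libraries. In glutamine depletion the lysosomal cystine exporter Ctns went from 25.9 to 7.71 TPM (-1.63), the single gene of this list past 2-fold outside ER stress.

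In ER stress several transferases and peroxidases were past 2-fold downward, as were 11.0% of all genes. Of 15 expressed transferase genes other than Gsta4, 4 were past 2-fold downward and none upward, with a median of -0.60. The 4 were Gstm1, from 40.9 to 8.49 TPM (-2.14), Gstt3 (-1.64), Gstt1 (-1.55) and Mgst1 (-1.45). Of 3 other expressed glutathione peroxidases, 2 were past 2-fold downward, both of the ER. Gpx8 went from 288 to 71.5 TPM (-1.99), and Gpx7 from 72.9 to 35.9 TPM (-1.002), just past the threshold. Glrx, a glutaredoxin, was at -1.37, the single gene past 2-fold of 8 glutaredoxins and glutathione-dependent enzymes in any condition. Of 5 expressed carriers, 2 were past 2-fold upward, as were 8.60% of all genes. Abcc4, which exports organic anions, was at 1.54. Slc25a39, which takes glutathione into mitochondria, went from 146 to 294 TPM (1.004), just past the threshold. No carrier passed 2-fold in another condition.

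In oxidative stress none of the 15 transferases, 3 peroxidases, 8 glutaredoxins and related enzymes, 5 carriers or 8 genes of γ-glutamyl turnover passed 2-fold in either direction. Of all genes, 3.94% were past 2-fold upward in that library and 4.85% downward. Outside ER stress, these 5 lists held 2 values past 2-fold, Chac2 in osmotic stress (-1.17) and Gstm6 in glucose depletion (-1.16, at 3.69 TPM in the control). Over the same conditions, 1.83% to 3.94% of all genes were past 2-fold upward and 2.41% to 8.76% downward. Chac2, the relative of Chac1 that also cleaves glutathione, went from 13.2 to 5.01 TPM in ER stress (-1.24), while Chac1 went the other way. Gsta1, which was below the expression filter and is named after its values were seen, was at 0.253 TPM in the control, 4.72 in oxidative stress, 2.00 in glutamine depletion and between 0.945 and 1.71 in the other 4 libraries.

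**Figure D4:**
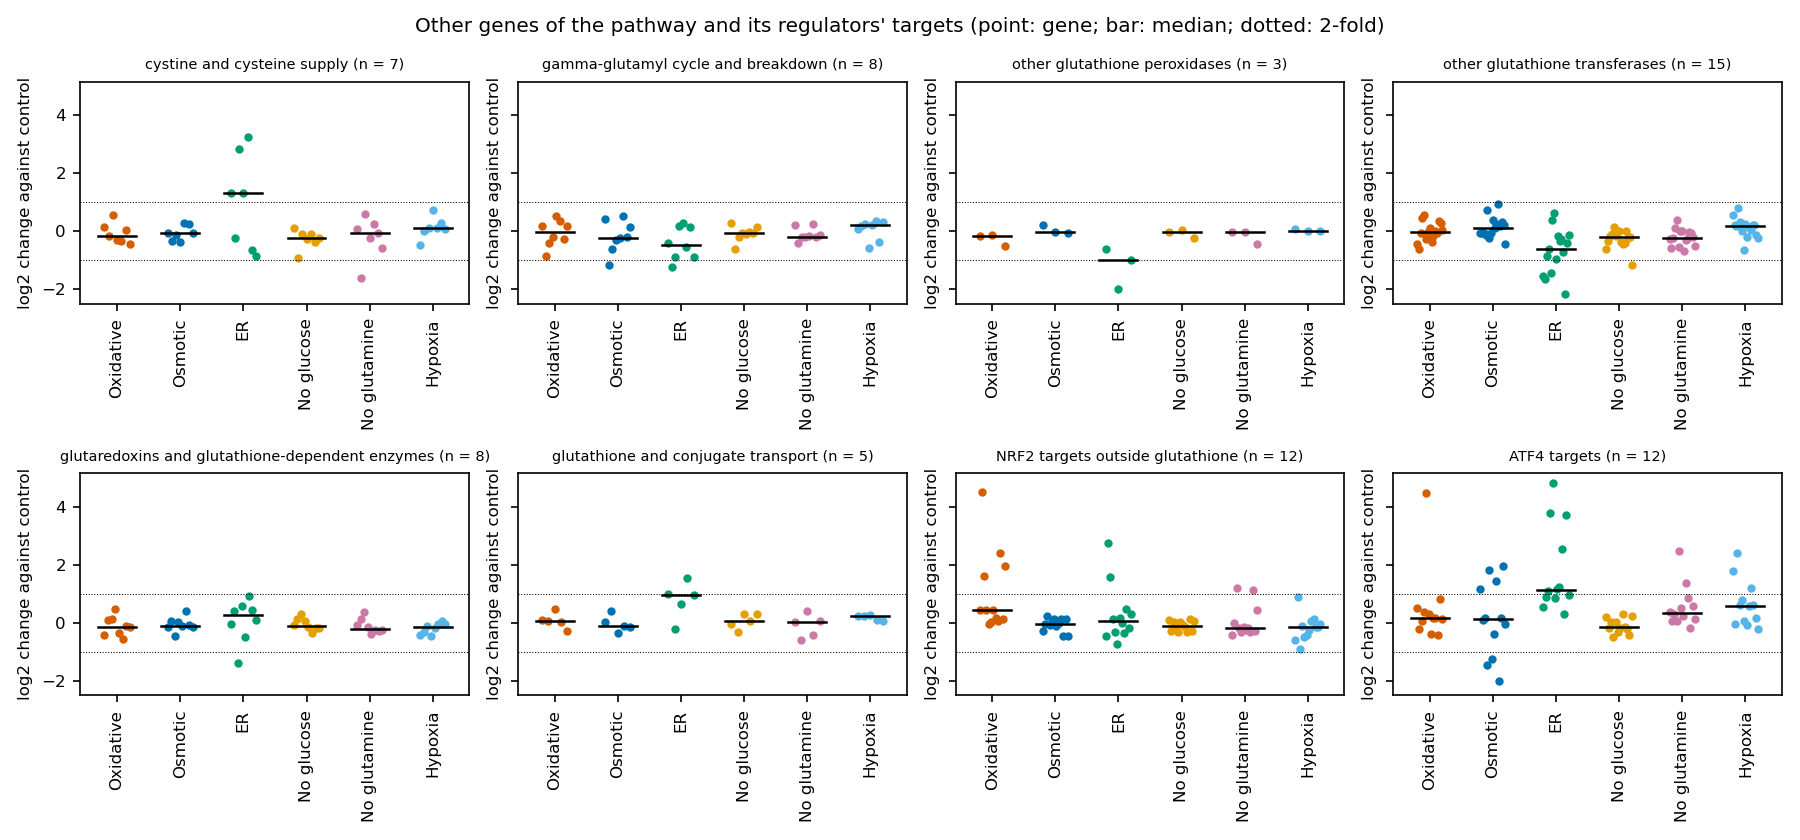
Change in log2(TPM + 1) against the control (vertical axis) by condition (horizontal axis) for 8 gene lists, 1 panel each, with 1 point for each gene that passed the expression filter and a bar for the list's median. The cystine and cysteine supply list has its median at 1.31 in ER stress, and the NRF2 and ATF4 panels show the genes past 2-fold named in the text.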

How the data were processed

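RNA-seq was read from 1 table with 7 libraries. Per the labels and the study's methods, mRNA went into stranded paired-end libraries, and the authors quantified the reads with Kallisto 0.43.1 at default settings, which do not use the strand, against the GRCm38 cDNA of Ensembl release 90. The deposited values are TPM per gene, added up from its transcripts, and each library sums to 1000000. Columns were assigned to conditions by the titles in the labels. With no counts, depth and counting error are unknown.

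From the TPM, log2(TPM + 1) was computed and the value of the reference library subtracted. Genes averaging 2 TPM or more were kept, and a change past 2-fold was counted, the rule of the study's methods. With 1 library per condition no test was run. The genes and lists were chosen with earlier results of these data known. List genes past 2-fold were named, up to 4 per list and condition. Some list genes within 2-fold, such as Nqo1, Keap1 and Nfe2l2, were also named, outside this rule. Rows of the same symbol with identical values were counted once. Alternatives were pseudocounts of 0.1 and 5 TPM, subtraction of the all-gene median, thresholds of 1.5-fold and 3-fold, no filter or an average of 10 TPM or more, removal of mitochondrially encoded genes, and protein-coding genes only. Genes past 2-fold in the direct comparisons were counted in the same way. Likeness was Pearson r over the 7 libraries on log2(TPM + 1), among genes spanning at least 1 log2 unit, with the 5 highest named, except 2 that are not reported here. Locations, gene types and overlaps came from GENCODE M21 (GRCm38), in which 132 of the kept genes were unmatched, and promoters from RefSeq on GRCm38.p6. Steps were tested on simulated data. Software was Python 3.11.15 with pandas 2.3.3, numpy 2.4.6 and, for plots, matplotlib 3.10.9.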

Additional observations from a re-analysis of the deposited data

How the results depend on the processing

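The number of the 10 genes past the threshold depended mostly on that threshold. Of 90 counts recomputed under alternatives, 77 stayed within 1.5 times the original and 13 did not, and 12 of those 13 came from the threshold. Counts that stayed within 1.5 times could still change by single genes. Gclc in ER stress, for example, passed 2-fold with a pseudocount of 0.1 TPM (1.01). At 1.5-fold, 2 genes passed in each of osmotic stress, glucose depletion, glutamine depletion and hypoxia, and 5 in ER stress. Of all genes, 9.70% to 40.2% passed at 1.5-fold over the 6 conditions. The genes that passed were downward in osmotic stress, glucose depletion and hypoxia and upward in glutamine depletion. In ER stress all but Gsta4 were upward. In the direct comparisons at 1.5-fold, 5 passed in ER stress, 2 in glutamine depletion and 2 in hypoxia, each against glucose depletion. At 3-fold, 1 passed in oxidative stress (Slc7a11), 0 in hypoxia, 3 in oxidative against osmotic stress and 0 in hypoxia against glucose depletion. For the direct comparisons, the share of all genes at 1.5-fold and 3-fold is not given here. Those counts therefore stand without a background and describe no excess. With a pseudocount of 5 TPM, 0 passed in hypoxia. No change past 2-fold reversed its sign under these alternatives. With a mean of at least 10 TPM, Slc7a11 was no longer among the genes compared, and it left the counts in oxidative and ER stress. The share of all genes past the threshold, between 4.24% and 19.6% over the 6 conditions, moved more. It was 2.61% to 11.8% with a pseudocount of 5 TPM, 9.70% to 40.2% at 1.5-fold, 2.86% to 7.69% at 3-fold, 2.45% to 7.20% with no filter, 1.79% to 17.1% at an average of 10 TPM or more and 1.04% to 16.9% over protein-coding genes. With 1 library per condition, small changes cannot be told from variation between cultures, and unknown depth limits Slc7a11 most. No paired analysis was possible because each condition had 1 library.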

Other observations

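For 5 of the genes, those whose levels over the 7 libraries were most like theirs were read by Pearson r on log2(TPM + 1), as a description over 7 libraries that share 1 preparation of the table. The 5 highest for each were picked from 5446 protein-coding genes (6750 genes of all types). High values of r therefore say little by themselves, and shared control was not tested. For Gclm, the most alike protein-coding genes were Hmox1 (r = 0.966) and Hspb8, a small heat shock protein (0.963), with Zfand2a (0.929) and Prnd (0.924) also among the 5 highest. Hspb8 (0.942), Prnd (0.942) and Zfand2a (0.930) were also among the 5 for Gclc, with Cdt1 (0.935) and Acsl3 (0.932). For Chac1 they were Epc1 (0.983), Plk2 (0.979), Sesn2, a known stress target of p53 and ATF4 (0.972), Zfp629 (0.971) and Znrf2 (0.967). For Gsta4 they were Pdpn (0.966), Hsd17b7 and Nsdhl, both of cholesterol synthesis (0.962 and 0.951), Tspan18 (0.956) and Dnaja1 (0.945). For Slc7a11 they included Zfp142 (0.959), Tmem179 (0.947), AI846148 (0.946) and Ypel5 (0.944). The limit to protein-coding genes was chosen after seeing the data, because 13 of the 25 entries without it were noncoding. Some noncoding genes were entered for more than 1 of the 5 genes. Among the entries were Mir1949 for Slc7a11 (0.963), Gm28901 for Gclm (0.992) and Gm27786 for Gclc (0.978).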
